A study of Homo sapiens with 32 samples.

Results

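The data describe 9 genes of the epidermal growth factor (EGF) receptor system in HCT116 cells, a human colorectal carcinoma line. They are the receptors EGFR, ERBB2 and ERBB3, the ligands AREG, EREG, HBEGF, TGFA and BTC, and ERRFI1, an inhibitor of the receptor. They were chosen by name, as the rows of the count table whose Ensembl identifiers carry those symbols, and are 9 of 60660 rows. The choice was made with earlier results of these data known, so counts of members called are a description and no independent support. All 9 passed the filter on low counts in every comparison, so no member dropped out of a test.

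The libraries came from HCT116 cells that carry the doxycycline-inducible plant F-box protein OsTIR1 (tetON), and knockouts and controls alike had this background. Each knockout was made with Cas9 and its clones grown from single sorted cells: IGF2BP3 was targeted in clones A3, E4 and D12, and IGF2BP2 in clones B7, F6 and G6. A3 and E4 shared a guide, as did B7 and F6, while D12 and G6 each had another. IGF2BP2 and IGF2BP3 are related proteins that bind messenger RNA. Cells received tunicamycin, which blocks N-linked glycosylation in the endoplasmic reticulum and so sets off the unfolded protein response, or its solvent DMSO. For parental cells and IGF2BP3 knockout clones the dose was 5 µg/mL over 4 h, with DMSO at 1 in 1000. The labels give neither dose nor time for the IGF2BP2 knockout clones. Per treatment there were 4 parental libraries (2 samples with 2 libraries each), 6 IGF2BP3 knockout libraries and 6 IGF2BP2 knockout libraries (3 clones with 2 libraries each). Nothing in the labels says whether libraries of a line came from separate cultures, so p-values measure the spread between these libraries, which may be partly technical.

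Total counts per library ran from 16651438 to 24913021. The DMSO libraries of clone G6 are called control in title and library name but tunicamycin in the treatment field; their mean HSPA5 level of 907 counts-per-million (CPM, scaled between libraries with TMM) lay within the other DMSO lines' range of 851 to 1000 CPM, against 7990 to 10400 CPM in tunicamycin. IGF2BP3 transcript was 70.1 to 82.8 CPM in parental libraries and 18.7 to 50.9 CPM in the IGF2BP3 knockout, with the highest clone mean, 49.2 CPM, in D12. IGF2BP2 transcript was 159 to 204 CPM in parental libraries and 81.3 to 116 CPM in the IGF2BP2 knockout. Epithelial markers were present (EPCAM 189 to 380 CPM, KRT8 1670 to 2800 CPM), the intestinal markers VIL1 and CDH17 were at or near 0 (at most 0.147 and 0.419 CPM) and CDX2 was low (median 12.4 CPM). Of 10 markers of immune, endothelial, fibroblast, liver and glial cells, COL1A1 (4.61 to 12.3 CPM) and VWF (0.0949 to 0.796 CPM) were the highest, and the other 8 reached at most 0.157 CPM. The part of such RNA in the results was not tested. In these bulk libraries fewer cells of a type and less RNA per cell cannot be told apart.

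As background, EGFR, ERBB2 and ERBB3 are receptor tyrosine kinases that act in pairs. Their ligands are made as membrane-bound precursors with an EGF-like domain and are released by proteases such as ADAM17. AREG and TGFA bind EGFR, while EREG, HBEGF and BTC bind EGFR and ERBB4. ERBB2 has no known ligand of its own and ERBB3 is a weak kinase that binds neuregulins. Pairing activates the RAS-ERK and PI3K cascades, and ERK activity in turn raises transcription of several ligands and of ERRFI1, which binds the EGFR kinase domain and shuts it down. In colorectal tumours AREG and EREG are known as ligands that tumour cells make for themselves.

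In GENCODE release 29 on GRCh38, 3 of the 5 ligand genes share a stretch of chromosome 4. EREG lies at chr4:74365143-74388751 and AREG at chr4:74445134-74455009, both on the plus strand and 56.4 kb apart. BTC follows at chr4:74744759-74794686 on the minus strand, 289.7 kb beyond AREG, and EPGN, another ligand gene of the family, lies on the far side of EREG. TGFA is at chr2:70447280-70554193 (minus strand) and HBEGF at chr5:140332843-140346631 (minus strand). EGFR is at chr7:55019021-55211628, ERBB3 at chr12:56076799-56103505 and ERBB2 at chr17:39687914-39730426, all on the plus strand. ERRFI1 is at chr1:8004404-8026308 on the minus strand. Exons of 4 members overlap another gene: 186 of the 12521 exon bases of EGFR lie under EGFR-AS1, 571 and 194 of the 10321 of ERBB2 under MIEN1 and PGAP3, 31 of the 9039 of ERBB3 under AC034102.2 and 155 of the 4186 of ERRFI1 under AL034417.4. AC034102.2 lies on the strand of ERBB3, so counting by strand would not separate them, and the other genes lie opposite their member. Whether the authors counted by strand is not given in the sources used here. Reads in all those bases therefore cannot be assigned with certainty.

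The 4 members with the largest tunicamycin response, described below, were AREG, EREG, HBEGF and ERRFI1, and their promoters are shown because they moved together. Each is the RefSeq window (GRCh38.p14) from 250 bases before to 50 after the gene's start, printed 5′ to 3′ on the gene's strand. Capitals mark matches to the motifs searched.
AREG promoter, chr4:74444886-74445185, plus strand: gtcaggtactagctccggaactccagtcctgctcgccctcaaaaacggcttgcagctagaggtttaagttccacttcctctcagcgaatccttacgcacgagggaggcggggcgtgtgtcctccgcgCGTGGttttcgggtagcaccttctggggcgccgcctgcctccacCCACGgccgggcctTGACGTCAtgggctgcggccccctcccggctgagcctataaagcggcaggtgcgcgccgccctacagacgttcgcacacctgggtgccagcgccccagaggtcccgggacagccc
EREG promoter, chr4:74364895-74365194, plus strand: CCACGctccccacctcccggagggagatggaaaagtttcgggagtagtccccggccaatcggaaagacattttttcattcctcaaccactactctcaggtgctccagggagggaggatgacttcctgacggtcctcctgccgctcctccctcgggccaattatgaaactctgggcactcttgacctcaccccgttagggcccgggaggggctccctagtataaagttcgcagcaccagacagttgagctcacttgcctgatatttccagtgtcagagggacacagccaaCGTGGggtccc
HBEGF promoter, chr5:140346554-140346853, minus strand: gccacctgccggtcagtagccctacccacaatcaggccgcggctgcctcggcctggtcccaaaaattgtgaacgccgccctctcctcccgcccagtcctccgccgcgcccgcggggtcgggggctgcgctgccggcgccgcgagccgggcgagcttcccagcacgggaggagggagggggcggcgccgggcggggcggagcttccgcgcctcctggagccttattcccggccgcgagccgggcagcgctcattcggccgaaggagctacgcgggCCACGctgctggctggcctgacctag
ERRFI1 promoter, chr1:8026260-8026559, minus strand: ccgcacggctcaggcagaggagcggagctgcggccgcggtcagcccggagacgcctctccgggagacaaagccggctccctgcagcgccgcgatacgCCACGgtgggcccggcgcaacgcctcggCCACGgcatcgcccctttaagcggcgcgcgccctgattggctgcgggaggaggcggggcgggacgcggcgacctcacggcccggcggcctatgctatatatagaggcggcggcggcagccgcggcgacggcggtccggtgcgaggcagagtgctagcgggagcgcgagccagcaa

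The motifs were searched on both strands in the promoters of 8 members, of which EGFR and TGFA had a second window. They were the cAMP response element TGACGTCA, which 1.85% of 35116 promoters in the same table hold, the AP-1 site TGACTCA (4.95%), the ATF4/CHOP elements TGATGCAA (0.866%) and TGATGAAA (1.11%), the XBP1 element TGACGTGG (0.729%) and CCACG, the ATF6 part of the ER stress element (38.1%). No pair of matches overlapped in the windows shown. With positions in bases from the start site of each window, AREG held the TGACGTCA match at -65 and CCACG at -123 and -79. EREG held CCACG at -250 and 39, HBEGF at 24, ERRFI1 at -153 and -125, and BTC at -93. The second EGFR window, chr7:55109589-55109888, lies inside the gene, and held TGACTCA at -232 and -136 from its own start site. No window of a member held an ATF4/CHOP or XBP1 match, and those of ERBB2 and TGFA and the first of EGFR held no match to any of the 6. A match is a run of letters and no evidence that a factor binds there.

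Levels between genes were compared per kilobase of the union of annotated exons, which can be longer than the transcript expressed. The order of genes depends on that length, and SD and overlap describe the spread of libraries only. In parental cells in DMSO, EREG stood highest at 329 ± 26.7 CPM per kb (SD, n = 4), then ERRFI1 at 276 ± 32.8 and AREG at 238 ± 34.3 CPM per kb. Libraries overlapped between EREG and ERRFI1 and between ERRFI1 and AREG. A wide gap followed, to EGFR at 18.3 ± 0.530 and TGFA at 17.8 ± 1.62 CPM per kb, which overlapped each other. ERBB2 stood at 7.67 ± 0.346, HBEGF at 3.75 ± 0.471, ERBB3 at 2.67 ± 0.0616 and BTC at 0.975 ± 0.184 CPM per kb, with no overlap between neighbours. In tunicamycin the order of the top 3 became ERRFI1 (837 ± 57.1), EREG (737 ± 42.6) and AREG (729 ± 56.0 CPM per kb), again overlapping, and HBEGF moved up to 18.8 ± 1.49 CPM per kb, where its libraries overlapped those of EGFR (21.4 ± 1.2) and TGFA (17.8 ± 2.09). The other receptor and ligand genes of the family were scarce: ERBB4 and NRG3 had means of 0.00761 and 0 CPM over all libraries, and EGF, EPGN, NRG1, NRG2 and NRG4 had 0.127 to 0.943 CPM.

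**Figure D1:**
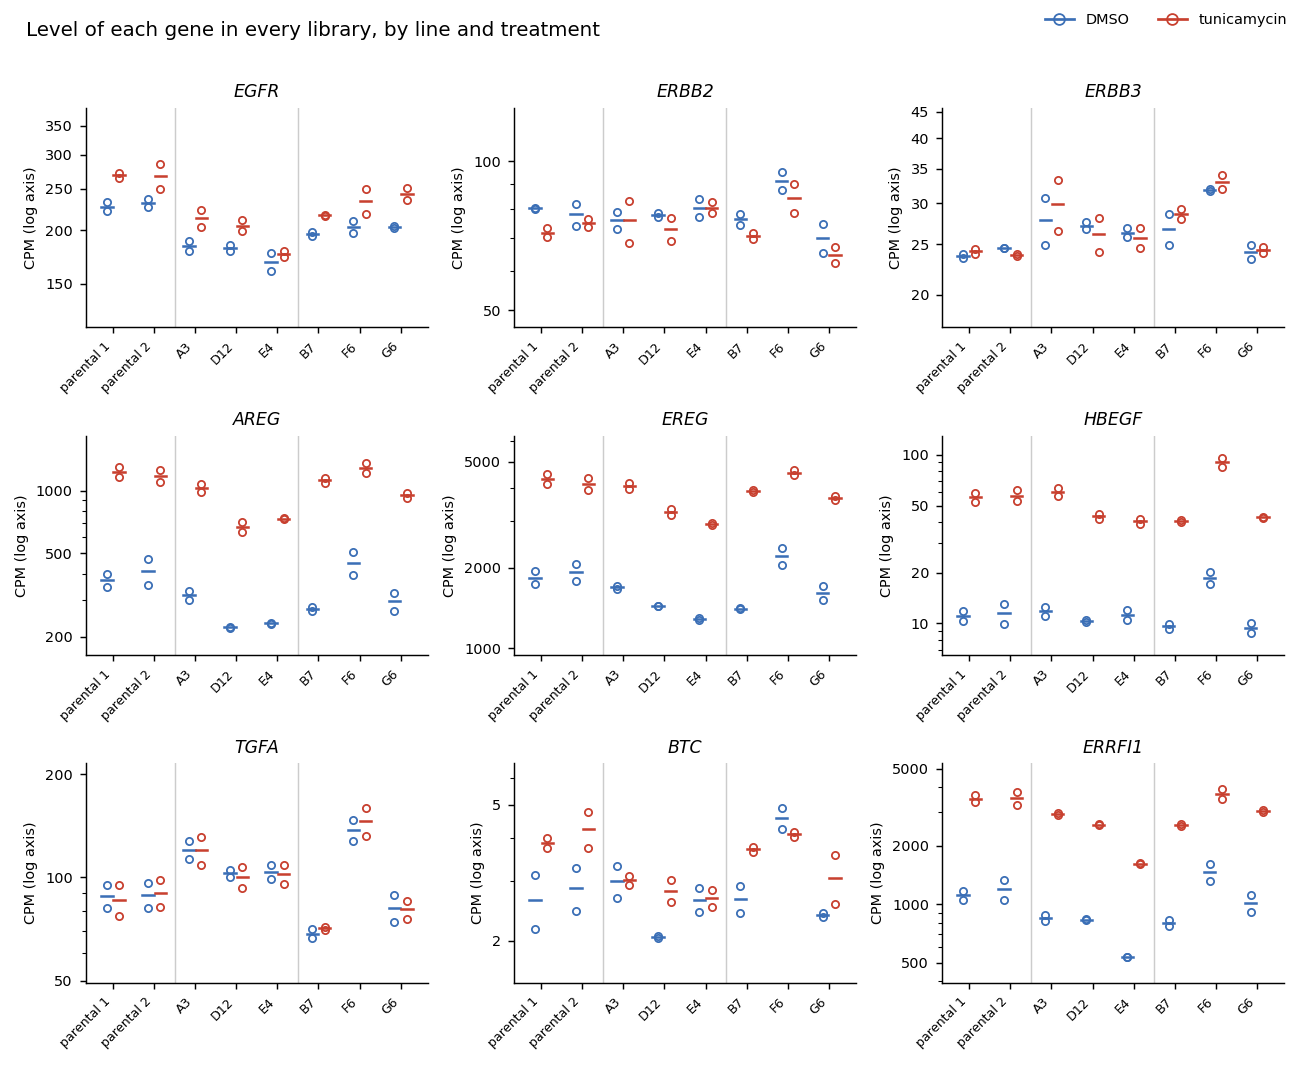
Level of each of the 9 genes in every library, in CPM on a log axis, by line, with DMSO in blue and tunicamycin in red; circles are libraries and bars the mean of the 2 libraries of a line. AREG, EREG, HBEGF and ERRFI1 in tunicamycin lie above DMSO in all 8 lines. Clone F6 has the highest mean in both treatments for every gene but EGFR and BTC, and clone E4 the lowest for EGFR and ERRFI1.

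The first comparison asked how tunicamycin changed these genes in parental cells. Ligand genes HBEGF, AREG and EREG rose 5.00-fold, 3.08-fold and 2.25-fold, and the inhibitor ERRFI1 rose 3.05-fold. The receptor EGFR rose by far less, 1.17-fold, and the scarce ligand BTC rose 1.48-fold. ERBB2, ERBB3 and TGFA did not pass the test. In all, 6 of 9 members were called and all 6 were higher, against 26.8% of 14398 genes called, 12.5% higher and 14.3% lower (edgeR quasi-likelihood test, Benjamini-Hochberg adjusted p under 0.05).

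HBEGF, which encodes heparin-binding EGF-like growth factor, was at 11.9 and 10.4 CPM in parental sample 1 and 13.1 and 9.96 CPM in sample 2 under DMSO. In tunicamycin it was at 59.4 and 52.6 CPM in sample 1 and 61.4 and 52.9 CPM in sample 2, so every treated library lay above every control. On the log2 scale the difference was 2.32 (SE 0.089, edgeR adjusted p = 9.62e-08). AREG, which encodes amphiregulin, went from 398 and 347 CPM (sample 1) and 469.7 and 354 CPM (sample 2) to 1300 and 1158 CPM and 1254 and 1096 CPM, with no overlap (log2 1.62, SE 0.094, adjusted p = 1.58e-06). EREG, which encodes epiregulin, had DMSO values of 1941, 1740, 2070 and 1780 CPM in the same order and tunicamycin values of 4478, 4114, 4344 and 3929 CPM (log2 1.17, SE 0.065, adjusted p = 1.25e-06). ERRFI1 had 1176, 1047, 1340 and 1054 CPM in DMSO and 3642, 3356, 3767 and 3256 CPM in tunicamycin (log2 1.61, SE 0.080, adjusted p = 5.92e-07). For both genes the groups lay far apart.

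EGFR itself had 232, 221, 236 and 226 CPM in DMSO and 272, 265, 286 and 249.6 CPM in tunicamycin. The groups did not overlap, but the step was small (log2 0.23, SE 0.049, adjusted p = 0.00613) and lost its call without replicate 1 of parental sample 1 (adjusted p = 0.0654). BTC, the ligand betacellulin, had 3.11, 2.17, 3.25 and 2.45 CPM in DMSO and 3.73, 3.99, 4.75 and 3.745 CPM in tunicamycin (log2 0.56, SE 0.17, adjusted p = 0.0342), and its call ended when either replicate of either parental sample was left out (adjusted p 0.0635 to 0.15). TGFA, the ligand transforming growth factor alpha, was at 94.8, 81.6, 96.2 and 81.6 CPM in DMSO and 95.3, 77.1, 98.6 and 81.9 CPM in tunicamycin. Its log2 difference was -0.0030 (95% CI -0.19 to 0.19). The receptor ERBB2 differed by -0.11 (95% CI -0.22 to 0.0061) and ERBB3 by -0.0043 (95% CI -0.13 to 0.12) on the log2 scale.

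The second comparison asked the same of the knockouts. In IGF2BP3 knockout cells 5 of 9 members were called, all higher, against 33.8% of genes (16.2% higher, 17.6% lower). In IGF2BP2 knockout cells 5 of 9 were called, all higher, against 40.1% (19.2% higher, 20.9% lower). In each knockout they were AREG, EREG, HBEGF, ERRFI1 and EGFR. The log2 fold changes in the IGF2BP3 and IGF2BP2 knockouts were 2.09 (SE 0.079) and 2.18 (SE 0.060) for HBEGF, 1.66 (SE 0.047) and 1.75 (SE 0.086) for AREG, 1.68 (SE 0.041) and 1.54 (SE 0.068) for ERRFI1, and 1.21 (SE 0.037) and 1.23 (SE 0.063) for EREG, with adjusted p from the same edgeR test of at most 1.45e-09. No library of these 4 genes in tunicamycin fell to the level of a DMSO library of its knockout. For EGFR the changes were 0.16 (SE 0.047, adjusted p = 0.019) and 0.20 (SE 0.040, adjusted p = 0.000869), and treated and control libraries overlapped in the IGF2BP3 knockout. The call in the IGF2BP3 knockout ended without clone A3 (adjusted p = 0.0675), without clone D12 (0.165), without the line term (0.0759) and without the low-count filter (0.077). BTC was not called in either knockout (log2 0.15, adjusted p = 0.418, and 0.22, adjusted p = 0.246). ERBB2 differed by -0.11 in the IGF2BP2 knockout (SE 0.044, adjusted p = 0.0559) and was called lower there with counts summed per line (adjusted p = 0.0187).

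Line by line, HBEGF changes ran from 1.84 in E4 to 2.34 in A3, AREG from 1.51 in F6 to 2.04 in B7, ERRFI1 from 1.34 in F6 to 1.78 in A3 and EREG from 1.03 in F6 to 1.46 in B7 (log2 scale, 8 lines, 2 libraries per treatment each). All 8 lines were up for these genes and for EGFR, whose changes ran from 0.061 in E4 to 0.26 in G6. BTC was up in 7 of 8 lines, with F6 at -0.16 (SE 0.20). ERBB2 was up in 1 of 8 lines, ERBB3 in 5 and TGFA in 3, and over the 3 genes the changes ran from -0.16 (ERBB2 in parental sample 1) to 0.10 (ERBB3 in A3). In parental cells the mean log2 difference was 1.56 in replicate 1 and 1.69 in replicate 2 for AREG, 2.28 and 2.38 for HBEGF, 1.14 and 1.19 for EREG, 1.56 and 1.65 for ERRFI1, 0.25 and 0.20 for EGFR, and 0.40 and 0.74 for BTC. In the IGF2BP3 knockout it was 0.105 and 0.195 for EGFR and 0.32 and -0.0050 for BTC.

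**Figure D2:**
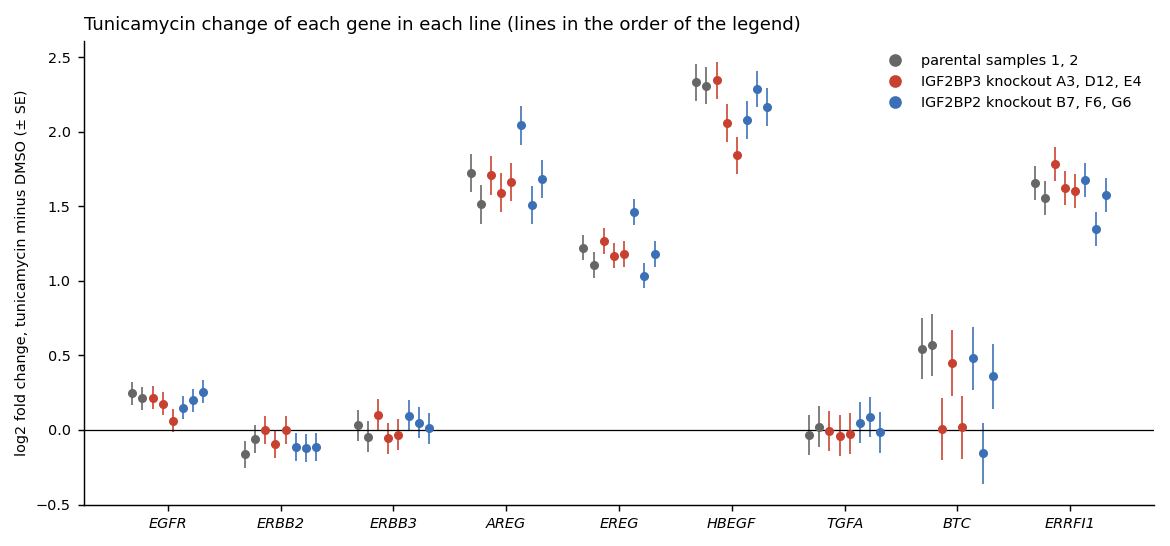
Tunicamycin change of each gene in each of the 8 lines as log2 fold change with its SE; grey points are the parental samples, red the IGF2BP3 knockout clones and blue the IGF2BP2 knockout clones. HBEGF, AREG, ERRFI1 and EREG lie between 1.03 and 2.34 in every line, while ERBB2, ERBB3 and TGFA lie between -0.16 and 0.10.

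Whether a knockout altered the tunicamycin response was tested by the interaction. Neither interaction called any member, and neither called any gene (0% of 15313 for IGF2BP3 and 0% of 15178 for IGF2BP2 by edgeR, with 255 and 213 genes and no member at unadjusted p under 0.05; DESeq2 also called no member). For AREG the difference in response was 0.043 (95% CI -0.17 to 0.25) with the IGF2BP3 knockout and 0.13 (95% CI -0.18 to 0.43) with the IGF2BP2 knockout, on the log2 scale. For ERRFI1 it was 0.073 (95% CI -0.10 to 0.25) and -0.072 (95% CI -0.32 to 0.18), and for EREG 0.050 (95% CI -0.093 to 0.19) and 0.061 (95% CI -0.16 to 0.28). HBEGF differed by -0.23 (95% CI -0.49 to 0.040) and -0.14 (95% CI -0.37 to 0.095). BTC had the widest intervals, -0.40 (95% CI -0.82 to 0.014) and -0.34 (95% CI -0.79 to 0.11), at levels of 2.04 to 4.89 CPM. These intervals bound the difference and do not show that the responses were alike.

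The third comparison asked which members differed between IGF2BP3 knockout and parental cells in DMSO. EGFR was 0.775-fold, AREG 0.653-fold, EREG 0.781-fold and ERRFI1 0.638-fold of the parental level, and TGFA was 1.23-fold. With 5 of 9 members called (4 lower, 1 higher) the background was 1.61% of 14568 genes called, 1.1% lower and 0.515% higher. EGFR was at 160.4, 179 and 189 CPM as lowest, median and highest of the 6 knockout libraries, all below the parental 221 to 236 CPM (log2 -0.37, SE 0.047, adjusted p = 0.00165). AREG had 221, 232 and 332 CPM as lowest, median and highest, against parental 347 to 469.7 CPM (log2 -0.61, SE 0.12, adjusted p = 0.0182). ERRFI1 had 533, 821 and 876 CPM against 1047 to 1340 CPM (log2 -0.65, SE 0.14, adjusted p = 0.0293). EREG had 1276, 1440 and 1707 CPM against 1740 to 2070 CPM (log2 -0.36, SE 0.083, adjusted p = 0.0469). The knockout groups of these 4 genes lay wholly below the parental libraries. TGFA went the other way, at 98.95, 107 and 128 CPM against 81.6 to 96.2 CPM (log2 0.30, SE 0.069, adjusted p = 0.0455), wholly above. In no comparison was it counted how many of all genes lay apart in this way, so it describes these libraries only.

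The support for these calls differed by gene. EGFR passed in all 13 alternative fits (adjusted p 3.58e-10 to 0.024), among them counts summed per line, in which each clone or parental sample enters once (adjusted p = 0.024). There the other members lost their calls: AREG (adjusted p = 0.102), EREG (0.179), TGFA (0.158) and ERRFI1 (0.158). The same 4 lost them with all 32 libraries in a single fit (AREG 0.0801, EREG 0.263, TGFA 0.751 and ERRFI1 0.123). AREG also lost its call without D12 (0.0605), E4 (0.0621) or replicate 1 of parental sample 1 or 2 (0.0651 and 0.0762). EREG lost it without D12 (0.126), E4 (0.0984) or any of the 4 parental libraries (0.0736 to 0.163), TGFA without A3 (0.0963) or any parental library (0.0744 to 0.136), and ERRFI1 without any parental library (0.0547 to 0.112). Within replicate 1 and replicate 2 the mean log2 differences were -0.40 and -0.33 for EGFR, -0.805 and -0.44 for AREG, -0.809 and -0.53 for ERRFI1, -0.46 and -0.26 for EREG, and 0.25 and 0.35 for TGFA.

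In tunicamycin only EGFR was called between IGF2BP3 knockout and parental cells, 1 of 9 against 0.718% of 14626 genes (0.602% lower). Its knockout libraries had 173, 201 and 222 CPM as lowest, median and highest, below the parental 249.6 to 286 CPM (log2 -0.44, SE 0.074, adjusted p = 0.017). The call ended with counts summed per line (adjusted p = 0.0717) and without replicate 1 of parental sample 1 (0.080) or of sample 2 (0.0781). AREG had 634, 734 and 1070 CPM, all below the parental 1096 to 1300 CPM, with a log2 difference of -0.57 (SE 0.13, adjusted p = 0.073). ERRFI1 differed by -0.57 (SE 0.16, adjusted p = 0.184), EREG by -0.31 (SE 0.099, adjusted p = 0.259), TGFA by 0.28 (SE 0.091, adjusted p = 0.262) and BTC by -0.52 (SE 0.13, adjusted p = 0.106), where the DMSO values were -0.65, -0.36, 0.30 and -0.10. DESeq2 and the fit with no filter on low counts each called 3 members (AREG at adjusted p = 0.00302 and 0.000567, ERRFI1 at 0.0363 and 0.00381), while their calls over all genes were 236 and 185 against 105. With the replicate number as a block, AREG, TGFA and BTC were called beside EGFR, and calls over all genes were 333.

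In IGF2BP2 knockout cells no member was called against parental cells in DMSO (0.0137% of 14564 genes called) or in tunicamycin (0.00694% of 14419). At unadjusted p under 0.05 there was 1 member in DMSO, EGFR, among 690 of 14564 genes, and DESeq2 called it (adjusted p = 0.0121). Over all genes DESeq2 called 12 in DMSO, against 2 in the main fit. In tunicamycin 2 members, EGFR and ERBB3, were among the 1005 of 14419 genes at unadjusted p under 0.05, and DESeq2 called no member. EGFR stood at 193, 200 and 209.5 CPM as lowest, median and highest in DMSO, all below the parental libraries (log2 -0.19, SE 0.041, adjusted p = 0.724). The differences of AREG (-0.20, 95% CI -0.57 to 0.16), TGFA (0.12, 95% CI -0.33 to 0.56) and HBEGF (0.15, 95% CI -0.35 to 0.65) had wide intervals. Without clone F6, HBEGF in tunicamycin turned from 0.032 to -0.44 and was called (adjusted p = 0.0337). Calls over all genes went from 1 to 14 in that fit.

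The direct comparison of the knockouts called no member in DMSO (0.589% of 14250 genes) or tunicamycin (0.391% of 14066). At unadjusted p under 0.05 there were 3 members in DMSO, where 1995 of 14250 genes were, and 5 in tunicamycin, where 2073 of 14066 genes were. DESeq2 called 1 in each, EGFR in DMSO (adjusted p = 0.00954) and AREG in tunicamycin (0.0249). Its calls over all genes were 307 in DMSO and 329 in tunicamycin, against 84 and 55 in the main fits. EGFR was lower in all IGF2BP3 knockout libraries than in any IGF2BP2 knockout library in DMSO (log2 -0.18, SE 0.044, adjusted p = 0.0842). AREG differed by -0.41 (SE 0.16, adjusted p = 0.252) and ERRFI1 by -0.57 (SE 0.18, adjusted p = 0.164) in DMSO. Without F6 TGFA was called higher in the IGF2BP3 knockout, by 0.54 in DMSO (adjusted p = 0.00617) and 0.50 in tunicamycin (adjusted p = 0.0165). Leaving F6 out also raised calls over all genes, from 84 to 290 in DMSO and from 55 to 218 in tunicamycin.

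**Figure D3:**
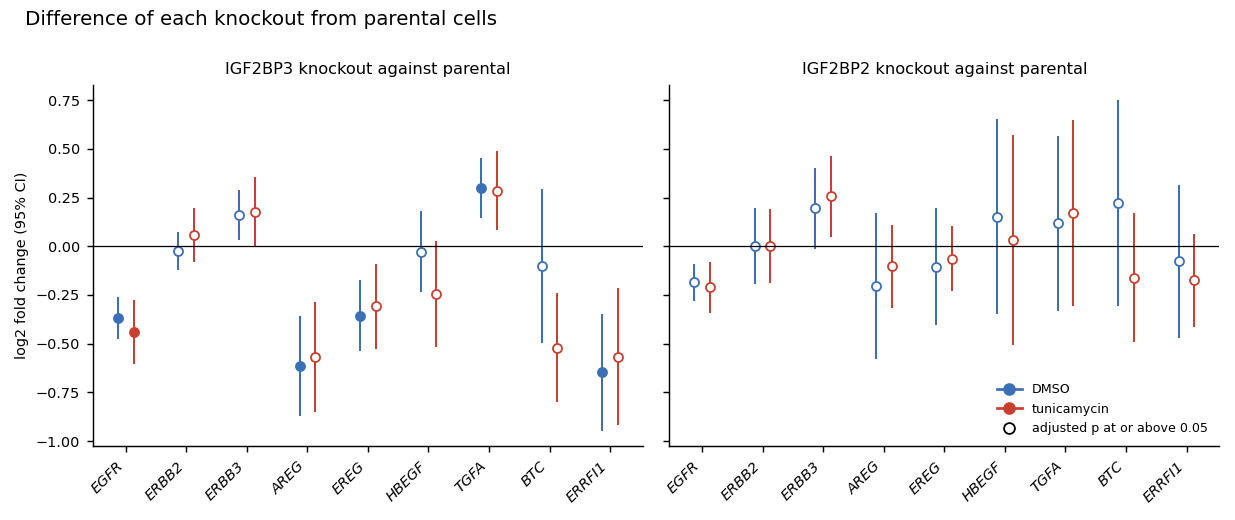
Log2 fold change of each gene between knockout and parental cells with its 95% CI, for IGF2BP3 knockout (left) and IGF2BP2 knockout (right), in DMSO (blue) and tunicamycin (red); filled points passed the test. EGFR, AREG, EREG and ERRFI1 lie below 0 in both treatments in the left panel, and all points of the right panel are open.

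Clones of a knockout differed from each other. Among IGF2BP3 knockout clones 4 of 9 members were called (7.63% of 14265 genes): ERRFI1 (adjusted p = 5.79e-07), AREG (3.61e-05), EREG (7.91e-05) and HBEGF (0.0362, and 0.0643 without replicate 2), by edgeR with treatment as covariate. Among IGF2BP2 knockout clones 8 of 9 were called (26.4% of 14145), all but EGFR, with adjusted p from 7.89e-08 for HBEGF to 0.0196 for BTC. The BTC call ended without the DMSO libraries of G6 (adjusted p = 0.107) and without replicate 2 (0.182). Between the parental samples no member and no gene was called (0% of 14398 by edgeR, with 254 genes and no member at unadjusted p under 0.05, and no member by DESeq2), but 33 genes were called without replicate 1 and 306 without replicate 2. Each clone was compared with the parental samples over both treatments, in a fit of all 32 libraries with line and treatment as terms.

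All 6 contrasts share the same 8 parental libraries, so their signs are not independent of each other. EGFR was below the parental samples in all 6 clones, by -0.53 in E4, -0.36 in D12, -0.33 in A3, -0.27 in B7 and -0.19 in F6 (log2, adjusted p 4.81e-10 to 0.00362), and by -0.16 in G6 (adjusted p = 0.0557). In E4 it had 176 and 160.4 CPM in DMSO and 173 and 178 CPM in tunicamycin, the lowest of any line in each treatment. The F6 call ended without replicate 2 (adjusted p = 0.0867).

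ERRFI1 was lowest in E4, at 534 and 533 CPM in DMSO and 1607 and 1630 CPM in tunicamycin (log2 -1.11, SE 0.073, adjusted p = 1.41e-12). D12 (-0.46, adjusted p = 3.9e-05), A3 (-0.35, 0.00116) and B7 (-0.49, 4.69e-06) were lower by less, and F6 was above parental (0.22, adjusted p = 0.0293, but 0.158 without parental sample 1 and 0.0802 without replicate 2). F6 had 1610 and 1313 CPM in DMSO, where B7, made with the same guide, had 827 and 771 CPM. G6 differed by -0.20 (adjusted p = 0.157).

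AREG and EREG moved together. D12 and E4 were lowest, by -0.83 and -0.73 for AREG and -0.38 and -0.54 for EREG, with adjusted p of at most 3.59e-05. D12 had 221 and 223 CPM of AREG in DMSO and 634 and 704 CPM in tunicamycin, and E4 230.5 and 233 CPM and 731 and 737 CPM. A3, which shares its guide with E4, had 298 and 332 CPM in DMSO and 1070 and 986 CPM in tunicamycin, and its differences were -0.27 for AREG (adjusted p = 0.0459, but 0.114 without replicate 1 and 0.0978 and 0.125 without parental sample 1 and 2) and -0.10 for EREG (adjusted p = 0.372). B7 was lower for AREG (-0.31, adjusted p = 0.0112) and EREG (-0.26, 0.00169) over both treatments, but in tunicamycin alone the differences were -0.084 (adjusted p = 0.701) and -0.099 (0.477). G6 was lower for AREG (-0.38, adjusted p = 0.00894) and EREG (-0.21, 0.0452), and F6 was higher for EREG (0.17, 0.0381). Those G6 calls ended without its own DMSO libraries (adjusted p = 0.117 and 0.199) and without replicate 2 (0.051 and 0.11), that of EREG also without either parental sample (0.128 and 0.14), and the F6 call without replicate 2 or either parental sample (up to 0.216).

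HBEGF and TGFA set F6 apart from its sister clone B7. HBEGF in F6 was 20.1 and 17.1 CPM in DMSO and 96.25 and 84.9 CPM in tunicamycin, above every library of every other line in each treatment (log2 0.69, SE 0.078, adjusted p = 9.05e-08). In B7 it was 9.28 and 9.92 CPM in DMSO and 40.2 and 40.9 CPM in tunicamycin (log2 -0.38, SE 0.084, adjusted p = 0.00147). TGFA was 147 and 128 CPM in DMSO and 159.6 and 132.5 CPM in tunicamycin in F6 (log2 0.68, SE 0.071, adjusted p = 1.79e-08), and 70.55 and 66.6 CPM and 70.2 and 71.7 CPM in B7 (log2 -0.34, SE 0.074, adjusted p = 0.0013). Among IGF2BP3 knockout clones TGFA was higher in A3 (0.45, adjusted p = 6.83e-05) and E4 (0.22, 0.036, but 0.136 without parental sample 1 and 0.0644 without sample 2), while D12 differed by 0.20 (adjusted p = 0.0934). HBEGF was lower in D12 (-0.29, adjusted p = 0.0305, but 0.102 without replicate 1 and 0.0614 and 0.0985 without parental sample 1 and 2), E4 (-0.28, 0.0201, and 0.0606 without parental sample 2) and G6 (-0.35, 0.0158, but 0.115 without its DMSO libraries, 0.105 without replicate 1 and 0.0762 without parental sample 2), and A3 differed by 0.072 (adjusted p = 0.748). In DMSO libraries alone HBEGF differed by -0.14 in D12 (adjusted p = 0.821), -0.0086 in E4 (0.988) and -0.24 in B7 (0.369).

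The receptors ERBB2 and ERBB3 and the ligand BTC differed in few clones. ERBB3 was 31.7 and 32 CPM in DMSO and 33.9 and 32.01 CPM in tunicamycin in F6, above all 8 parental libraries, which held 23.5 to 24.65 CPM (log2 0.43, SE 0.057, adjusted p = 1.92e-06). It was also higher in A3 (0.26, adjusted p = 0.00371, and 0.395 without replicate 1) and B7 (0.20, 0.016, but 0.177 without replicate 1 and 0.0919 and 0.0643 without parental sample 1 and 2). Its values were above 0 in all 6 clones, down to 0.0092 in G6. ERBB2 was higher in F6 alone (0.20, adjusted p = 0.00636), and G6 differed by -0.18 (0.0649). BTC was lower in D12 (-0.48, adjusted p = 0.0385, but 0.302 and 0.104 without replicate 1 and 2 and 0.178 without parental sample 2), and F6 differed by 0.38 (0.0556). Counted by clone, 5 members were called in A3 against 6.82% of 15622 genes, 6 in D12 (7.21%), 6 in E4 (13.8%), 7 in B7 (15.6%), 7 in F6 (15.3%) and 3 in G6 (2.33%). Of these 34 calls, 21 held in each of the 4 fits that left out a replicate number or a parental sample.

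**Figure D4:**
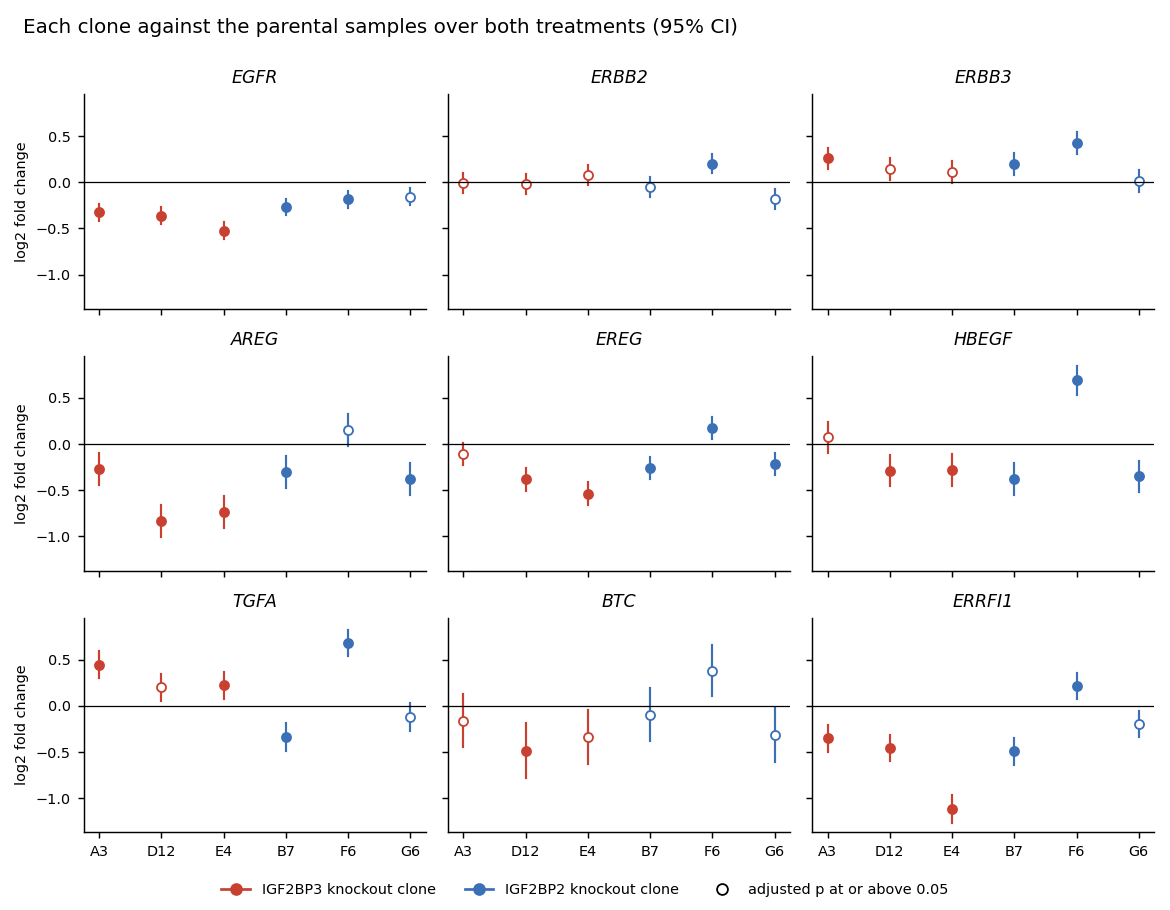
Log2 fold change of each gene in each clone against the parental samples over both treatments, with its 95% CI, for IGF2BP3 knockout clones (red) and IGF2BP2 knockout clones (blue); filled points passed the test. EGFR lies below 0 in all 6 clones, and F6 lies above 0 for the other 8 genes.

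Likeness of pattern is given as a description, over means whose genes share the same libraries. Over the 16 means per line and treatment, Pearson's r of log2 CPM was 0.993 between AREG and EREG, 0.984 between EREG and ERRFI1 and 0.970 between EREG and HBEGF, values that rest mostly on the tunicamycin step. With treatment centred out, over 8 lines, AREG and EREG had r = 0.947, EREG and ERRFI1 0.937, EGFR and ERRFI1 0.852, and TGFA and HBEGF 0.791, while EGFR and TGFA had -0.257. Among all genes with a mean count of at least 100, those most like AREG over the 16 means were EREG, MICAL2 (0.985) and ELL2 (0.976), and those most like HBEGF were the ERK phosphatase gene DUSP5 (0.991), BCL10 (0.987) and PMAIP1 (0.986). ERRFI1 was closest to EREG, ELL2 (0.978) and AREG (0.969). TGFA was closest to the epithelial adhesion gene EPCAM (0.971), CDH3 (0.948) and SH3RF2 (0.946), and EGFR to SYNJ2 (0.942) and ITPRIPL2 (0.936). Over the 8 lines with treatment centred out, the closest genes were TM7SF2 for AREG (0.975), AP1S3 for EREG (0.974), TRAF3 for HBEGF (0.995), PMAIP1 for TGFA (0.990), RNF2 for EGFR (0.980) and ZMYND8 for ERRFI1 (0.982). ERBB3 was closest to TAB3 and ERBB2 to SPINT1 over the 16 means (0.937 and 0.873).

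Other genes of the pathway, in lists chosen by function with earlier results of these data known, gave the setting. Among 17 ERK target and feedback genes, 12 were called in parental cells in tunicamycin, 10 higher and 2 lower, against 26.8% of all genes called (12.5% higher and 14.3% lower), with a median log2 change of 0.30 against -0.0074 over all genes. In the IGF2BP3 and IGF2BP2 knockouts 11 were higher and 2 lower in each (medians 0.37 and 0.31), against 16.2% and 19.2% of all genes higher. The largest rises in parental cells were the early transcription factor EGR1 (2.77, adjusted p = 2.1e-08), IER3 (1.61, 1e-06) and DUSP5 (1.57, 6.21e-06), and the falls were DUSP4 (-0.57, 0.0061), another phosphatase of this kind, and the cyclin gene CCND1 (-0.46, 0.000427). Between IGF2BP3 knockout and parental cells, DUSP6, an ERK phosphatase, was the only gene of this list called, lower by -0.39 in DMSO (adjusted p = 0.00705) and -0.34 in tunicamycin (0.0253). Over all genes 1.61% and 0.718% were called. The list's medians were -0.067 and -0.079.

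Of 11 genes that act on ligand shedding, 8 were tested and 3 called in parental cells in tunicamycin, against 26.8% of all genes. ADAM17, the main sheddase of AREG, EREG, HBEGF and TGFA, rose (0.83, adjusted p = 3.89e-06), and FRMD8 (-0.39, 0.000488), which stabilizes the sheddase complex, and ADAM19 (-0.68, 0.0189) fell. ADAM17 rose by 0.68 and 0.78 in the IGF2BP3 and IGF2BP2 knockouts. The list's median was 0.046. ADAM19 was also lower in IGF2BP3 knockout than parental cells in DMSO (-0.70, adjusted p = 0.0189), where 1.61% of all genes were called. In tunicamycin it was not called (-0.50, adjusted p = 0.288), and the IGF2BP3 knockout clones differed from each other in ADAM19 (adjusted p = 0.0196).

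Of 11 genes of receptor trafficking and turnover, 4 rose and 1 fell in parental cells in tunicamycin (median 0.13), 6 rose and 1 fell in the IGF2BP3 knockout and 7 rose and 1 fell in the IGF2BP2 knockout. Over all genes 12.5%, 16.2% and 19.2% rose in these groups and 26.8%, 33.8% and 40.1% were called. CBLB, a ubiquitin ligase that marks receptors for degradation, rose most (1.74, adjusted p = 1.81e-06), followed by RNF41 (0.51, 0.00015), a ligase that acts on ERBB3, and SH3KBP1 (0.40, 0.00591), and LRIG3 fell (-0.75, 0.000507). Of 17 adaptor and RAS-ERK cascade genes, 3 rose and 3 fell (median 0.047) against 26.8% of all genes called, led by SOS2 (0.57, adjusted p = 0.0118) and GAB1 (-1.07, 0.00582). Among PI3K branch genes the regulatory subunit PIK3R1 fell (-0.63, adjusted p = 0.00025). Of the 7 other receptor and ligand genes 2 were tested and NRG4 fell (-1.18, adjusted p = 0.0464) at a mean of 0.697 CPM. NRG4 was not called in the IGF2BP3 or IGF2BP2 knockout (-0.43, adjusted p = 0.264, and -0.26, 0.587). NRG1, at a mean of 0.943 CPM, was called lower in both (-1.34, 0.0135, and -0.85, 0.00311) but not in parental cells (-0.93, 0.0967). Between IGF2BP3 knockout and parental cells, these last 4 lists held 1 call, SH3KBP1 in tunicamycin (-0.31, adjusted p = 0.0142). Over all genes 1.61% were called in DMSO and 0.718% in tunicamycin. Between IGF2BP2 knockout and parental cells none of the 6 lists held a call in either treatment. There 0.0137% of all genes were called in DMSO and 0.00694% in tunicamycin, so the absence of calls says little about the lists.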

How the data were processed

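Poly(A) RNA of 32 HCT116 libraries was sequenced from a directional kit, per the labels' protocols. The authors deposited raw read counts per gene, 1 column per library; STAR 2.7.5c and hg38 are named in the submitters' processing notes, and the counting tool, annotation and strand setting are not given in the sources used here. Of 60660 Ensembl identifiers, 60419 matched a symbol, and 22333 had no count in any library. Groups came from the titles. Total counts ran from 16651438 to 24913021 (median 21441775.5), and the 16 pairs of libraries of a line and treatment differed beyond sampling noise (chi-square per degree of freedom 4.59 to 25.2).

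Counts were scaled with TMM and tested with edgeR 4.0.16 (R 4.3.3, quasi-likelihood test, filterByExpr with a minimum count of 10), with Benjamini-Hochberg adjustment over all genes tested and a threshold of 0.05. Treatment and interaction fits carried a line term, genotype fits none, clone comparisons treatment. SE is the absolute log2 fold change over the square root of F. CPM values use TMM library sizes, log2 CPM a prior count of 2, and lengths the union of exons. DESeq2 1.42.0 and the other alternatives are in the closing section. The scripts were tested on simulated data. Libraries of a clone share that clone, so tests over libraries count each clone more than once, and counts summed per line are given as an alternative. Named genes were all 9 members, up to 3 called genes with the largest rise and fall per pathway list, the 3 genes most like each member, and the targeted and stress genes. A few genes that this rule names are not reported here. The members and lists were chosen with earlier results of these data known.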

Additional observations from a re-analysis of the deposited data

How the results depend on the processing

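Of 2025 values of single genes under alternatives, 1869 kept their side of the threshold, 110 lost the call and 45 gained it, and 59 changed sign where neither value was called. A called value reversed in 1, HBEGF between IGF2BP2 knockout and parental cells in tunicamycin without clone F6 (-0.436 against 0.0323, adjusted p = 0.0337), where leave-one-out fits ran from -0.436 to 0.23. The cause of these changes was not tested. Members called between IGF2BP3 knockout and parental cells in DMSO (5 of 9) numbered 1 with all 32 libraries in one fit, 1 with counts summed per line and 1 to 4 in fits that left out a clone or parental library. In tunicamycin (1 of 9) they numbered 3 by DESeq2, 3 with no filter on low counts, 0 with counts summed per line and 0 to 4 in leave-one-out fits. For IGF2BP2 knockout against parental cells (0 of 9) DESeq2 called 1 in DMSO, and leave-one-out fits called 0 to 1 in tunicamycin. Between the knockouts (0 of 9) DESeq2 and the fit with no filter each called 1 in DMSO and 1 in tunicamycin, the fit of all 32 libraries called 1 in tunicamycin, and leave-one-out fits called 0 to 1 in each. The 34 calls of clones against parental samples became 18 with DMSO libraries only and 15 with tunicamycin libraries only.

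Libraries with the same replicate number shared part of their deviations: 119 of 120 pairs had a correlation of deviations over 0.1 (0.0817 to 0.548, median 0.371). The criterion for pairing asked for every pair and was not met. The labels do not say what the number marks, and the main fits carried no replicate term. With the replicate number as a block, 4 members were called between IGF2BP3 knockout and parental cells in tunicamycin, EGFR, AREG (adjusted p = 0.0272), TGFA (0.0315) and BTC (0.0374), where all genes called went from 105 to 333. In the IGF2BP2 knockout ERBB2 was called lower in tunicamycin (0.00945). Among IGF2BP3 knockout clones 6 members differed with the block, where all genes called went from 1089 to 2080.

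Counts over all genes moved by more than 1.5 times in many alternatives. Main values and ranges over alternatives were 3854 (2519 to 5989), 4820 (3174 to 6865) and 5678 (4045 to 7062) for tunicamycin in parental, IGF2BP3 knockout and IGF2BP2 knockout cells. They were 235 (47 to 513) and 105 (29 to 333) for IGF2BP3 knockout against parental cells in DMSO and tunicamycin, 2 (1 to 47) and 1 (0 to 46) for IGF2BP2 knockout, and 84 (1 to 307) and 55 (1 to 423) between the knockouts. Clones differed in 1089 (1068 to 2903) and 3729 (2158 to 5917) genes, parental samples in 0 (0 to 306), and the interactions in 0 (0 to 1) and 0 (0 to 0). Clones against parental samples gave 1065 (145 to 2100) in A3, 1127 (174 to 2239) in D12, 2157 (390 to 3688) in E4, 2438 (594 to 3961) in B7, 2387 (528 to 3913) in F6 and 364 (26 to 1300) in G6. BTC, at 2.04 to 4.89 CPM, had the widest intervals of the 9 genes in the interactions.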
